A study of Mus musculus with 5 samples.

Results

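The T cell receptor alpha and beta variable (V) genes were followed through scRNA-seq libraries of murine small cell lung cancer (SCLC). Members were all genes of the deposited matrices whose symbol starts with Trav or Trbv, which gave 165 of 32589 genes, 130 Trav and 35 Trbv. Their unique molecular identifiers (UMIs, counts of distinct RNA molecules) were examined in T-lineage cells, meaning retained cells with 1 or more UMIs over Cd3d, Cd3e and Cd3g, the CD3 chains that carry the receptor to the surface. These cells were split by whether 1 or more UMIs of Rag2 or Dntt were present. The 2 classes are called Rag2/Dntt detected and Rag2/Dntt not detected.

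The study asked how ERBB2 inhibition and PD-1 blockade act on antigen presentation and T cell recruitment in SCLC. All mice carried Rb1 fl/fl x Trp53 fl/fl, and inhaled adenoviral Cre removed both genes in lung cells reached by the virus; tumours were then left for about 6 months. The 5 libraries, 1 per group, came from lung tumours given vehicle (PBS), an anti-PD-1 antibody, the ERBB2 inhibitor mubritinib (ERBB2i), the combination of both, or the combination with a label that the animal was in response (combination in response, called the response library below). Agents were dosed at 10 mg/kg every 3 days, and tissue was processed within 72 h on a microfluidic SCOPE-chip. The labels give no mouse strain, age or number of animals per library; the study describes its mice as of C57BL/6 background and at least 6 weeks old, and mentions 4 mice for the scRNA-seq treatment groups without saying which library each gave. Treatment, library and animal cannot be told apart. Every interval below is a 95% interval that covers counting error only, since UMIs of 1 cell are not independent, and differences between libraries have no replicate check.

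A T cell receptor chain is built in the thymus by V(D)J recombination. The recombinase Rag1/Rag2 joins 1 V gene to a joining (J) gene, with a D gene between them for beta, and the enzyme Dntt (terminal transferase) adds bases at the joints. The beta chain is assembled first and is tested at the surface with the invariant pre-T alpha chain Ptcra. The alpha chain follows in CD4 and CD8 double-positive thymocytes, where joining starts with the V and J genes closest to each other and can move outward to more distant genes in later rounds. Mature T cells have switched the recombinase off and keep the V genes they chose.

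The composition of the libraries bears on every value. Retained cells were 71244 of 86735 barcodes, between 7260 and 22225 per library, with a median of 1204 to 6227.5 UMIs per cell. T-lineage cells numbered 7257 in the response library and 5321 in anti-PD-1, and ERBB2i had 2734 of them, combination 839 and vehicle 19. Rag2/Dntt detected cells were 5264 of the T-lineage cells in the response library and 3156 in anti-PD-1, against 27 in ERBB2i, 8 in combination and 0 in vehicle. Rag1 had 0 UMIs in T-lineage cells of every library, so it checks nothing here. In the response library the 8 neuroendocrine tumour markers together reached 6.76 UMIs per 1000000 UMIs of the T-lineage cells (CPM), with Dll3 at 0, and only 1 retained cell without CD3 UMIs held 2 or more tumour UMIs. This library is labelled as lung tumour, but the tumour markers were nearly absent from it. In the other libraries the same list reached 626 CPM (anti-PD-1), 1969.5 CPM (ERBB2i), 4119 CPM (combination) and 3746 CPM (vehicle) in T-lineage cells, and 16 of the 19 vehicle, 1053 of the anti-PD-1, 1177 of the ERBB2i and 606 of the combination T-lineage cells held 2 or more tumour UMIs. Without cells of 2 or more tumour UMIs the ratio of Trav to Trbv UMIs, described below, was 0.466 in anti-PD-1 (0.450 with them) and 0.772 in the response library (0.770 with them), and with doublets kept it was 0.452 and 0.786. Barcodes of 27 bases (vehicle, anti-PD-1, the response library) and 24 bases (ERBB2i, combination) separate the libraries into 2 sets, and fold changes between libraries were taken within a set. ERBB2i and combination shared 782 barcode sequences, and pairs of the other set shared 69 to 79.

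The Trav genes lie at chr14:52427967-53977678 and the Trbv genes at chr6:40891296-41558371 (mm10). By their annotation 110 Trav and 22 Trbv genes are functional V genes, and 20 Trav and 13 Trbv are V pseudogenes. The median annotated transcript was 359 bases for Trav and 366 bases for Trbv, so sums of UMIs over the 2 loci were compared without a length correction. Parts of the Trav locus are present in several near-identical copies, marked by d or n in the symbol. The ends of V segments are shown to make clear which genes the counts can separate. Each line gives the last 45 bases of a GENCODE transcript, 5′ to 3′, with capitals marking the codons of the tyrosine, any residue and cysteine that close the V segment before the junction.
Trbv2: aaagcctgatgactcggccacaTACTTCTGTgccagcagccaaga
Trbv12-2: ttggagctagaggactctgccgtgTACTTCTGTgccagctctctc
Trbv12-1: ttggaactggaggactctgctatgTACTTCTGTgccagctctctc
Trbv13-2: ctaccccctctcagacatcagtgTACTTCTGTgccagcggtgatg
Trbv31: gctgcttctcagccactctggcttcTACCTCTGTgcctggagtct
Trav13-5: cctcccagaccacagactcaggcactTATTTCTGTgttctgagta
Trav21-dv12: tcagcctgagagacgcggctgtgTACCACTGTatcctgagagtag
Trav14-2: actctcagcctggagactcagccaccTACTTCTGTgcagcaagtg
Trav14d-3-dv8: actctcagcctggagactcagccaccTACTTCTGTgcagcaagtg
Trav16: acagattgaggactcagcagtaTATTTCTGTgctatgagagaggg
Trav16n: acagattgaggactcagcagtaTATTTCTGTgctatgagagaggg
The Trbv genes shown differ from one another, and no Trbv gene had fewer than 50% of its 50-base windows unique among all V genes. Trav14-2 and Trav14d-3-dv8 end in the same 45 bases, as do Trav16 and Trav16n. Of the 130 Trav genes, 41 had no unique 50-base window and together held 6 UMIs, and 76 had fewer than 50% of their windows unique and held 904 of the 2770 Trav UMIs (32.6%). Reads from such copies cannot be assigned with certainty, so single Trav copies are given with that limit. The limit also holds for Trav sums, since UMIs of like copies may be lost, which can lower Trav to Trbv ratios. Shares of d and n copies differed between classes, so such a loss need not be equal in them. Its size was not tested. Among the genes named most, 95.5% of the windows were unique in Trav13-5, 100% in Trav21-dv12, 54.4% in Trav14-2, 61.2% in Trav14d-3-dv8, 51.8% in Trav16 and 42.7% in Trav16n.

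In T-lineage cells of all libraries, 104 of the 165 members had 1 or more UMIs, 81 Trav and 23 Trbv, and 77 had 10 or more. The 61 members without a UMI comprised 49 Trav genes, 13 of them pseudogenes and the other 36, all but Trav6-6, d and n copies, and 12 Trbv genes, 10 of them pseudogenes and the others Trbv4 and Trbv5. Among the pseudogenes, Trav8-2 had 56 UMIs, Trbv24 had 36, Trav13-3 had 22 and Trbv12-3 had 14. A pseudogene joined to a J gene can be transcribed without giving a receptor chain. Trav and Trbv UMIs came to 2770 and 4030 over all libraries.

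By library, vehicle T-lineage cells held 0 Trav and 0 Trbv UMIs, which at their depth allows up to 21.5 CPM for each locus. In anti-PD-1, Trav had 517 UMIs (33.9 CPM, 31.0 to 37.0) and Trbv 1148 (75.3 CPM, 71.0 to 79.8). In the response library, Trav had 2109 UMIs (169.8 CPM, 163 to 177) and Trbv 2738 (220.5 CPM, 212 to 229). V genes of both loci were higher per UMI of T-lineage RNA in the response library than in anti-PD-1, by 5.01-fold (4.55 to 5.52) for Trav and 2.93-fold (2.73 to 3.14) for Trbv. The size of the difference depended on depth. With every cell thinned to 500 UMIs before T-lineage cells were taken, Trav was at 208.7 against 76.9 CPM, 2.71-fold (2.26 to 3.27), and Trbv at 247.5 against 131.9 CPM, 1.88-fold (1.62 to 2.17). In ERBB2i, Trav had 123 UMIs (20.9 CPM) and Trbv 119 (20.3 CPM). In combination, Trav had 21 UMIs (9.26 CPM) and Trbv 25 (11.02 CPM). At full depth combination was at 0.442-fold (0.264 to 0.706) of ERBB2i for Trav and 0.544-fold (0.338 to 0.842) for Trbv. In thinned cells the direction reversed, at 47.6 against 40.9 CPM for Trav (10 and 34 UMIs) and 52.4 against 45.7 CPM for Trbv (11 and 38 UMIs), with ratios of 1.16 (0.513 to 2.41) and 1.15 (0.528 to 2.29), so no difference between these 2 libraries can be read. In a library of tumour and immune cells, fewer receptor-bearing cells in the class and less V RNA per cell cannot be told apart.

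A V gene UMI was seen in a minority of T-lineage cells. In anti-PD-1 there were 10.9 Trac UMIs per Trav UMI and 120 Trbc1 and Trbc2 UMIs per Trbv UMI. Receptor RNA was thus counted mostly at constant genes, and a cell without a V gene UMI cannot be taken to lack a rearranged gene. The response library had Trav UMIs in 20.4% of these cells, anti-PD-1 in 7.39%, ERBB2i in 4.13% and combination in 2.03%. Trbv UMIs were present in 24.8%, 15.8%, 4.02% and 2.50%, in the same order. The median depth was 1280, 2018, 1434 and 1756 UMIs per T-lineage cell, so the library with the shallowest cells had the highest shares. In cells without CD3 UMIs and with 2 or more tumour UMIs, which should lack these genes, the shares for Trav and Trbv were 0.353% and 1.59% in anti-PD-1 (median 3082 UMIs), while ERBB2i had 0.171% and 0.212% (2724 UMIs) and combination 0.0496% and 0.0595% (3004 UMIs). T-lineage shares were above this background in each of these 3 libraries. The response library held 1 such cell and so had no background of this kind. Its 1205 retained cells without CD3 UMIs had a median of 860.0 UMIs, and 12.3% of them held Trav and 9.96% Trbv UMIs, so V gene UMIs were not limited to the cells taken as T-lineage there. With every cell thinned to 500 UMIs before T-lineage cells were taken, the shares for Trav and Trbv were 8.92% and 10.7% in the response library and 3.38% and 6.04% in anti-PD-1, while ERBB2i had 1.98% and 2.22% and combination 1.90% and 2.14%. Thinned cells without CD3 UMIs had 0.497% and 0.766% in anti-PD-1, but 7.75% and 7.43% in the response library. The order of the libraries stayed the same for both loci, and ERBB2i and combination lay within each other's intervals for both loci.

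At full depth the Trav to Trbv ratio was lower in Rag2/Dntt detected than in not detected cells of anti-PD-1 and of the response library. In anti-PD-1, detected cells held 317 Trav and 951 Trbv UMIs, a ratio of 0.333 (0.293 to 0.379). Cells of the same library without Rag2/Dntt held 200 Trav and 197 Trbv UMIs, a ratio of 1.02 (0.830 to 1.24). In the response library, detected cells held 1573 Trav and 2203 Trbv UMIs, a ratio of 0.714 (0.669 to 0.762), and the others 536 and 535, a ratio of 1.00 (0.887 to 1.13). Within each library the detected class was thus lower than the other class, with an odds ratio of Trav to Trbv UMIs of 0.328 (0.258 to 0.418) in anti-PD-1 and 0.713 (0.621 to 0.819) in the response library. The detected classes of the 2 libraries differed by an odds ratio of 2.14 (1.85 to 2.48), response over anti-PD-1. The not detected classes gave 0.987 (0.779 to 1.25), an interval that includes no difference.

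Over all T-lineage cells the ratio was 0.450 (0.405 to 0.5001) in anti-PD-1, 0.770 (0.727 to 0.816) in the response library, 1.03 (0.797 to 1.34) in ERBB2i and 0.840 (0.447 to 1.56) in combination. ERBB2i and combination held nearly no Rag2/Dntt detected cells, and those gave 0 Trav and 2 Trbv UMIs in ERBB2i and none of either in combination. Detection of a transcript depends on depth, and anti-PD-1 cells with Rag2/Dntt had a median of 2477.5 UMIs against 1509 without, where the response library had 1293 and 1229. With cells thinned to 500 UMIs before the classes were formed, the class difference on the log2 scale was −0.72 (−1.35 to −0.10) in anti-PD-1 in place of −1.61, and −0.20 (−0.52 to 0.12) in the response library in place of −0.49, so in the latter the interval reached no difference. Tumour markers also differed between the anti-PD-1 classes, at 184 CPM in detected and 1562 CPM in not detected cells, as did 8 genes of mature T cells, at 273 and 1406 CPM there and at 684 and 3025 CPM in the response library. Without cells of 2 or more tumour UMIs the class difference was −1.68 in anti-PD-1 and −0.48 in the response library. The part of the mature T cell genes was not tested.

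**Figure D1:**
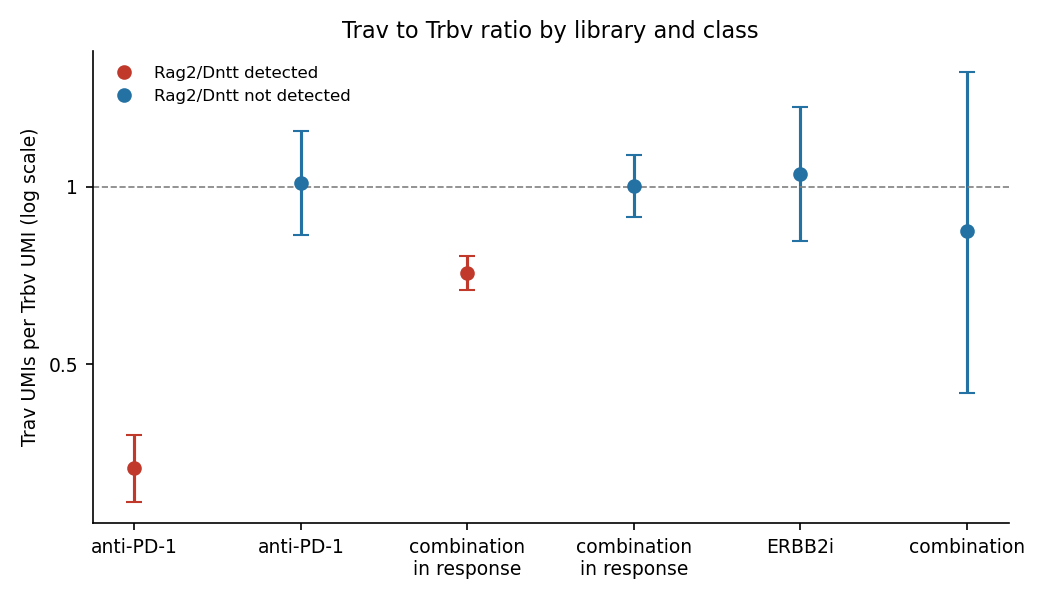
Trav UMIs per Trbv UMI (log axis) in Rag2/Dntt detected (red) and not detected (blue) T-lineage cells of each library, with exact 95% intervals for counting error. The 2 detected classes lie at 0.333 and 0.714, below a ratio of 1 (dashed line), and each of the 4 not detected classes has an interval that includes 1. A ratio of 1 means equal UMIs and need not mean equal RNA, since Trav copies are harder to assign.

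The constant genes gave a second reading of the same cells. Trac encodes the constant part of alpha, and Trbc1 and Trbc2 those of beta. Trav genes with dv in the symbol can also join to delta segments, whose constant gene is Trdc, so Trav UMIs need not all be alpha. In anti-PD-1, Trdc had 4249 UMIs against 2792 of Trac in detected and 265 against 2869 in not detected cells. In the response library it was 2483 against 7405 and 291 against 4405. How much delta joining adds to Trav per Trac and to the Trav to Trbv ratio was not tested. Trac was at 270 CPM in detected and 587 CPM in not detected cells of anti-PD-1, and at 781 and 1501 CPM in the response library. Trbc1 and Trbc2 together were at 11689 and 3439 CPM in anti-PD-1, and at 11868 and 7576 CPM in the response library. Trav UMIs per 100 Trac UMIs were 11.4 (10.1 to 12.8) in detected and 6.97 (6.01 to 8.05) in not detected cells of anti-PD-1, and 21.2 (20.1 to 22.4) and 12.2 (11.1 to 13.3) in the response library. Trbv UMIs per 100 Trbc UMIs were 0.786 and 1.17 in anti-PD-1, and 1.96 and 2.41 in the response library. At full depth the classes went opposite ways for the 2 loci, with more Trav per Trac UMI in detected cells and less Trbv per Trbc UMI. In thinned cells the Trav difference kept its direction, at 10.4 against 7.08 Trav per 100 Trac in anti-PD-1 (1.47-fold, 1.02 to 2.10) and 22.3 against 17.1 in the response library (1.30-fold, 1.09 to 1.55). The Trbv difference was then 0.978 against 1.04 Trbv per 100 Trbc (0.941-fold, 0.728 to 1.22) and 2.23 against 2.45 (0.912-fold, 0.785 to 1.06), with intervals that include no difference. Response over anti-PD-1, Trav per Trac was 1.96-fold (1.77 to 2.17) and Trbv per Trbc 2.44-fold (2.28 to 2.62) over T-lineage cells, and 2.42-fold (2.00 to 2.94) and 2.30-fold (1.99 to 2.67) in thinned cells. Over T-lineage cells ERBB2i and combination had 4.83 and 3.95 Trav per 100 Trac, and 1.55 and 1.40 Trbv per 100 Trbc. The J segments, which follow V in the transcript, had 236 Traj and 227 Trbj UMIs in anti-PD-1 and 1274 and 1579 in the response library.

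**Figure D2:**
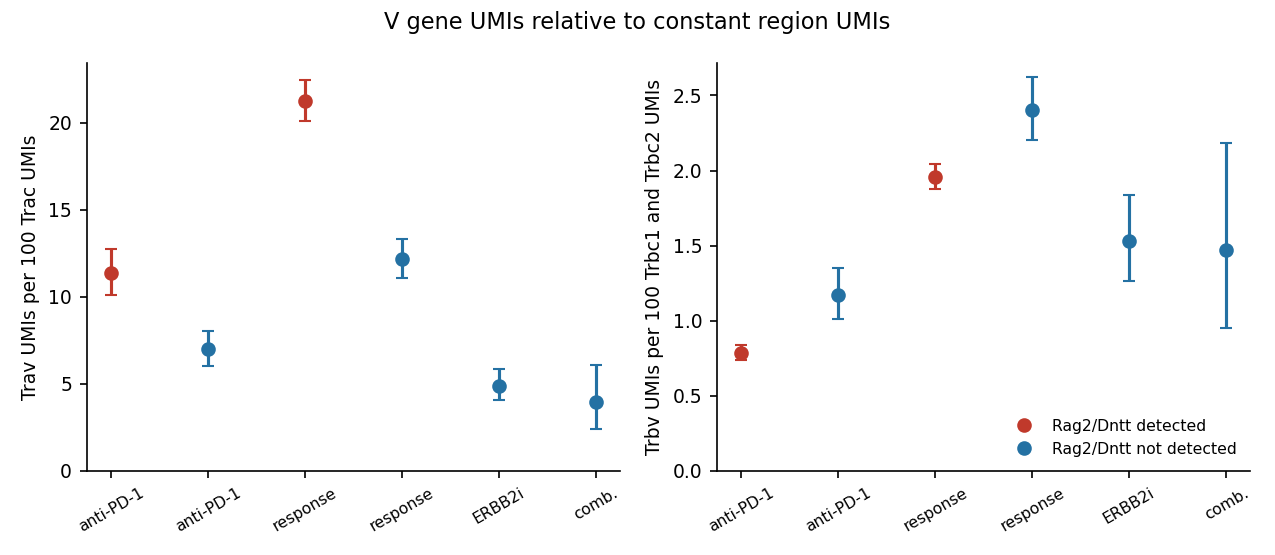
V gene UMIs per 100 constant region UMIs with 95% intervals, Trav against Trac on the left and Trbv against Trbc1 and Trbc2 on the right. For Trav the detected class (red) is the higher one within each library (11.4 against 6.97, and 21.2 against 12.2), and for Trbv the not detected class (blue) is (1.17 against 0.786, and 2.41 against 1.96). All values are at full depth. In cells thinned to 500 UMIs the Trbv class ratios have intervals that include no difference (0.728 to 1.22, and 0.785 to 1.06).

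The position of the Trav gene used along the locus differed between classes. The locus was divided by gene order into 4 parts of about equal gene number, of which the one nearest to the Traj genes (the near part) holds 33 genes from Trav14-1 to Trav23, 177 to 600 kb from Traj61, the Traj gene closest to the V genes. In anti-PD-1, 260 of the 317 Trav UMIs of detected cells (82.0%, 77.3 to 86.1) fell in the near part, against 79 of 200 (39.5%, 32.7 to 46.6) in not detected cells, an odds ratio of 6.99 (4.58 to 10.7). In the response library it was 968 of 1573 (61.5%, 59.1 to 64.0) against 222 of 536 (41.4%, 37.2 to 45.7), an odds ratio of 2.26 (1.84 to 2.78). With cells thinned to 500 UMIs, detected cells were at 75.0% (61.6 to 85.6) in anti-PD-1 and 52.2% (46.6 to 57.7) in the response library. The class contrast in position was not repeated in thinned cells. Near-part shares were higher in detected cells of both libraries, and more so in anti-PD-1. The odds ratio, anti-PD-1 over response, was 2.85 (2.09 to 3.94) between the 2 detected classes and 0.923 (0.653 to 1.30) between the not detected ones. All 41 Trav genes without a unique 50-base window lie outside the near part. Their UMIs can be lost or given to other copies, which can raise near-part shares and shorten median distances. The size of this effect was not tested. The median UMI lay 450.5 kb from Traj61 in detected and 666 kb in not detected cells of anti-PD-1, and 514 and 649 kb in the response library. In ERBB2i 78 of 123 UMIs (63.4%, 54.3 to 71.9) and in combination 14 of 21 (66.7%, 43.0 to 85.4) came from the near part, although nearly all of these cells had no Rag2 or Dntt. ERBB2i has barcodes of another length than anti-PD-1 and the response library, and the difference from them was not tested.

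Between classes, shares of near Traj genes went in the same direction. Traj UMIs were not traced to a V to J junction, so they do not show which Traj gene was joined. Of the Traj UMIs, 108 of 147 (73.5%, 65.6 to 80.4) came from the 30 of 60 genes closest to the V genes, Traj61 to Traj32, in detected cells of anti-PD-1, against 19 of 89 (21.3%, 13.4 to 31.3) in not detected cells. For the response library the count was 294 of 895 (32.8%, 29.8 to 36.0) against 80 of 379 (21.1%, 17.1 to 25.6). In not detected ERBB2i cells it was 15 of 89 (16.9%, 9.75 to 26.3). Not detected cells thus held mostly UMIs of the far Traj genes in all 3 libraries, ERBB2i included, where the Trav UMIs were mostly near.

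**Figure D3:**
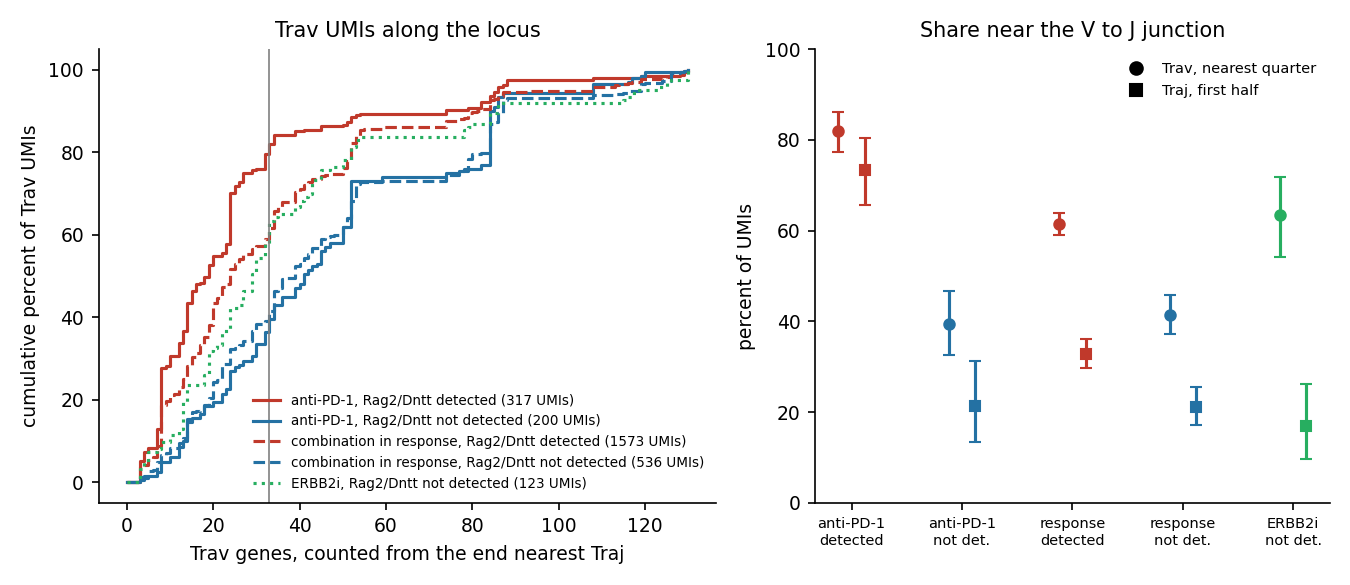
Left, the cumulative percent of Trav UMIs against gene order from the end of the locus nearest Traj, with the vertical line closing the near part of 33 genes. Trav genes without a unique 50-base window all lie beyond this line. Right, the percent of Trav UMIs from that near part (circles) and of Traj UMIs from the 30 Traj genes closest to the V genes (squares), with 95% intervals; detected cells of anti-PD-1 (82.0% and 73.5%) stand highest and not detected cells lie at 39.5% to 63.4% for Trav and 16.9% to 21.3% for Traj.

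Shares of the Trav copies also differed between classes. The d and n copies all lie outside the near part, as do some genes without these letters, such as Trav1. Whether position or read assignment gave the difference was not tested. Genes without d or n in the symbol gave 88.0% (83.9 to 91.4) of the Trav UMIs in detected and 58.5% (51.3 to 65.4) in not detected cells of anti-PD-1. The same genes gave, in the response library, 76.8% (74.6 to 78.9) and 63.1% (58.8 to 67.2).

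Single Trav genes of the near part did not all go one way. Trav13-5 and Trav21-dv12 had the higher share in detected cells of both libraries. Trav13-5 (chr14:53795455-53795963, 359 kb from Traj61) had the most Trav UMIs in anti-PD-1 and in the response library. In anti-PD-1 it was close to Trav14-2, with 38 positive cells against 37. Per kb of transcript Trav14-2 came first there, at 124 UMIs against 122. Trav13-5 had 47 UMIs in detected and 5 in not detected cells of anti-PD-1, 14.8% and 2.50% of Trav UMIs. In the response library it had 157 and 10, or 9.98% and 1.87%. The odds ratio of its share, detected over not, was 6.79 (2.64 to 22.2) and 5.83 (3.06 to 12.5). Trav21-dv12 (chr14:53876016-53876752), 278 kb from Traj61 and able to join to delta as well as alpha segments, had 16 UMIs in detected and 1 in not detected cells of anti-PD-1, and 56 and 7 in the response library. Trav14-2 (chr14:53640775-53641225) had 39 and 9 in anti-PD-1 but 58 and 19 in the response library, where the share was 3.69% against 3.54%. Trav7-6 (chr14:53716760-53717291) had 1 and 2 UMIs in anti-PD-1 and 29 and 1 in the response library. Trav9-2 and Trav4-3, also in the near part, had 13 and 9 and 16 and 14 UMIs in detected and not detected cells of the response library, and so a lower share in detected cells.

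Genes with a higher share in not detected cells included some that lie farther out. Trav14d-3-dv8 (chr14:53078547-53079045, 1076 kb from Traj61) had 5 UMIs in detected and 26 in not detected cells of anti-PD-1, 1.58% and 13.0% of Trav UMIs. Its counts in the response library were 35 and 38, or 2.23% and 7.09%, so it was lower in detected cells of both libraries. Trav8d-2 (chr14:53042428-53042891) was at 12 and 17 UMIs in the response library and at 1 and 2 in anti-PD-1. Trav16n (chr14:53351090-53351621) had 4 and 22 UMIs in anti-PD-1 but 70 and 23 in the response library, 4.45% and 4.29% there, so its class difference was seen in 1 library only. Trav14d-3-dv8 and Trav16n share their last bases with the nearer Trav14-2 and Trav16, so a part of these counts could belong to the other copy.

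Between libraries, Trav4-4-dv10 (chr14:53683677-53684177) went from 9 UMIs (1.74%) in anti-PD-1 to 101 (4.79%) in the response library, an odds ratio of its share of 2.84 (1.42 to 6.43). Trav8n-2 went from 1 to 48 UMIs and Trav3-3 from 6 to 61. Trav14-2 went the other way, from 48 UMIs (9.28%) to 77 (3.65%), with an odds ratio of 0.370 (0.251 to 0.551). In ERBB2i the leading Trav genes were Trav13-4-dv7 with 8 UMIs and Trav14-1, Trav14-2 and Trav5-4 with 7 each. In combination Trav16 led with 4 UMIs from 2 cells. With such counts no order among the genes of these 2 libraries can be read.

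Trav11 and Trav1 are known from innate-like T cells. Trav11, which invariant NKT cells use, had 3 UMIs, all in the response library, but none of its 50-base windows was unique, so reads from it may be lost to its copies. The pseudogene Trav11n had 15 UMIs. Trav1 (chr14:52427967-52428876), which MAIT cells use and which lies at the far end of the locus, had 10 UMIs in the response library and 2 in anti-PD-1, with 3 in ERBB2i and 0 in combination.

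Trbv2 (chr6:41047556-41047995) had the most UMIs of the Trbv genes in each of the 4 libraries with V gene UMIs. By cells, Trbv12-2 led in anti-PD-1, with 163 positive cells against 142 for Trbv2. Trbv2 had 685 UMIs in the response library (25.02%, 23.4 to 26.7) and 224 in anti-PD-1 (19.5%, 17.3 to 21.9), while ERBB2i had 37 (31.1%, 22.9 to 40.2) and combination 7 (28.0%, 12.1 to 49.4). Trbv12-2 (chr6:41118864-41119364) had 401 UMIs in the response library (14.6%) and 209 in anti-PD-1 (18.2%), with 10 in ERBB2i and 2 in combination. Trbv13-2 (chr6:41121396-41121832) had 274 (10.0%), 132 (11.5%), 12 and 3, in the same order. In UMIs per kb of transcript, Trbv12-2 came first in anti-PD-1 at 543, before Trbv2 and then Trbv13-2 at 388, and Trbv2 came first in the response library at 1223, before Trbv12-2 at 1042 and Trbv13-2 at 806. These 3 genes led in both libraries on either scale, and the length correction changed their order in anti-PD-1 and not in the response library.

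From anti-PD-1 to the response library the share of Trbv2 was higher, with an odds ratio of 1.38 (1.16 to 1.64), and that of Trbv12-2 lower, at 0.771 (0.639 to 0.931). Counted in cells and not in UMIs, Trbv2 made up 15.5% of the gene and cell pairs in anti-PD-1 and 18.5% in the response library. Trbv2 gave 1.58 UMIs per positive cell in anti-PD-1 and 1.81 in the response library with up to 10 in 1 cell, against 1.12 and 1.14 for Trbv13-2 and 1.28 and 1.25 for Trbv12-2. Trbv31 (chr6:41557693-41558371), which lies past the constant genes in inverted orientation, went from 24 UMIs (2.09%) to 125 (4.57%), an odds ratio of 2.24 (1.43 to 3.65). Trbv20 went from 46 (4.01%) to 168 (6.14%), an odds ratio of 1.57 (1.11 to 2.24). Its UMIs came from 41 and 120 positive cells, at 1.12 and 1.40 UMIs per cell with up to 8 in 1 cell of the response library. This odds ratio counts UMIs, and a difference in cells was not tested.

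**Figure D4:**
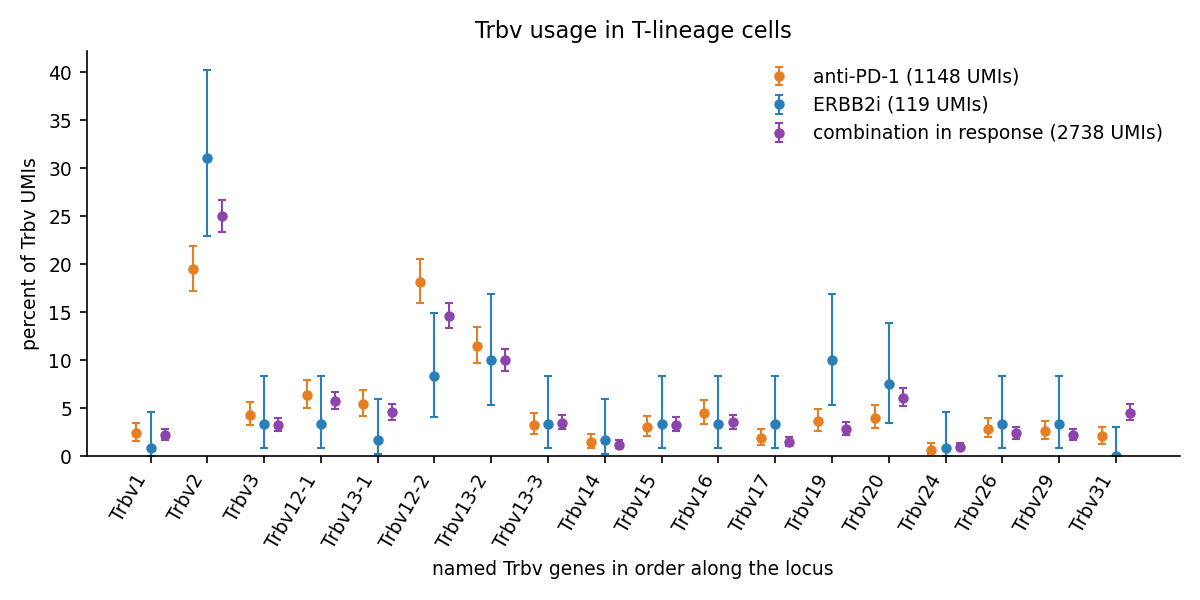
Percent of Trbv UMIs from each named Trbv gene, in order along the locus, in T-lineage cells of 3 libraries, with exact 95% intervals. Trbv2, Trbv12-2 and Trbv13-2 stand above the other genes in anti-PD-1 and the response library, and ERBB2i intervals are wide because they rest on 119 UMIs.

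Trbv usage was compared between the classes in the same way. Trbv2 gave 20.2% of Trbv UMIs in detected and 16.2% in not detected cells of anti-PD-1, and 24.1% and 28.8% in the response library, opposite directions of which the interval of the odds ratio excluded 1 in the response library (0.786, 0.634 to 0.977) and not in anti-PD-1 (1.30, 0.857 to 2.03). Trbv1 had 24 UMIs in detected and 4 in not detected cells of anti-PD-1, and 58 and 4 in the response library. Trbv26 had 31 and 2, and 59 and 7. The odds ratio of the Trbv1 share was 3.59 (1.32 to 13.7) in the response library and 1.25 (0.422 to 5.01) in anti-PD-1. Across genes, as a description and not over independent replicates, usage shares of detected and not detected cells had Pearson's r of 0.960 for 22 Trbv genes in anti-PD-1 and 0.977 for 23 in the response library, but 0.211 for 60 and 0.574 for 80 Trav genes. These classes come from the same library, and the Trbv values are dominated by 3 genes. The Trav values rest on fewer UMIs per gene, which by itself can lower r. Rank correlations (Spearman's) were 0.282 in anti-PD-1 and 0.752 in the response library for Trav, and 0.916 and 0.909 for Trbv. How much of the gap between the loci comes from sparse counts was not tested.

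Other Trbv genes gave smaller shares. Trbv5 had 0 UMIs in every library, while Trbv3 had 50 UMIs in anti-PD-1 and 90 in the response library, Trbv12-1 had 73 and 159, Trbv16 had 52 and 97, and Trbv26 had 33 and 66. Trbv19 had 42 UMIs (3.66%) in anti-PD-1, 78 (2.85%) in the response library, 12 (10.1%, 5.32 to 17.0) in ERBB2i and 0 in combination, where 25 Trbv UMIs were seen in all. Trbv13-1 (63 and 126 UMIs), Trbv13-3 (38 and 96), Trbv14 (17 and 34), Trbv15 (35 and 91), Trbv17 (22 and 42) and Trbv29 (30 and 62) were present at 1.24% to 5.49% of Trbv UMIs in the same 2 libraries.

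Many genes were used at both loci. The effective number of genes, the number of equally used genes that would give the same Shannon entropy, was 49.8 for Trav in the response library and 36.6 in anti-PD-1, while ERBB2i had 37.2 and combination 12.1. For Trbv it was 13.1, 13.4, 11.02 and 9.97, in the same order. The number of genes seen grows with the number of UMIs, so the expected number in 100 UMIs was also computed. It was 43.8 Trav genes in the response library and 38.5 in anti-PD-1, with 43.1 in ERBB2i, and 18.2, 18.2 and 17.5 Trbv genes. In 20 UMIs, which combination also reached, it was 14.8, 16.1, 13.5 and 15.98 Trav and 10.2, 9.81, 11.3 and 10.1 Trbv genes for anti-PD-1, ERBB2i, combination and the response library. By class, 100 Trav UMIs held 33.9 genes in detected and 40.2 in not detected cells of anti-PD-1, and 43.0 and 43.4 in the response library. The highest share of a single V gene in the 4 libraries was 31.1%, that of Trbv2 in ERBB2i.

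A rearranged T cell is expected to transcribe a single Trbv gene, which the UMIs of 1 cell can show. Among cells with 2 or more Trbv UMIs, all were of 1 gene in 351 of 584 cells in the response library (60.1%, 56.0 to 64.1) and 144 of 218 in anti-PD-1 (66.1%, 59.4 to 72.3), as in 7 of 7 ERBB2i and 4 of 4 combination cells. If UMIs were drawn independently at the usage of the library, these shares would be 7.76%, 7.83%, 10.9% and 13.3%. The V UMIs of a cell were thus far more alike than the library as a whole. For Trav, 66 of 93 cells in anti-PD-1 (71.0%, 60.6 to 79.9) and 242 of 436 in the response library (55.5%, 50.7 to 60.2) held 1 gene, and alpha can be rearranged on both chromosomes. In not detected cells the Trbv share was 22 of 29 (75.9%, 56.5 to 89.7) in anti-PD-1 and 70 of 103 (68.0%, 58.0 to 76.8) in the response library, with intervals that overlap those of detected cells, 64.6% (57.3 to 71.4) and 58.4% (53.9 to 62.9). Cells with both a Trav and a Trbv UMI numbered 419 in the response library and 82 in anti-PD-1, with 8 in ERBB2i and 0 in combination.

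**Figure D5:**
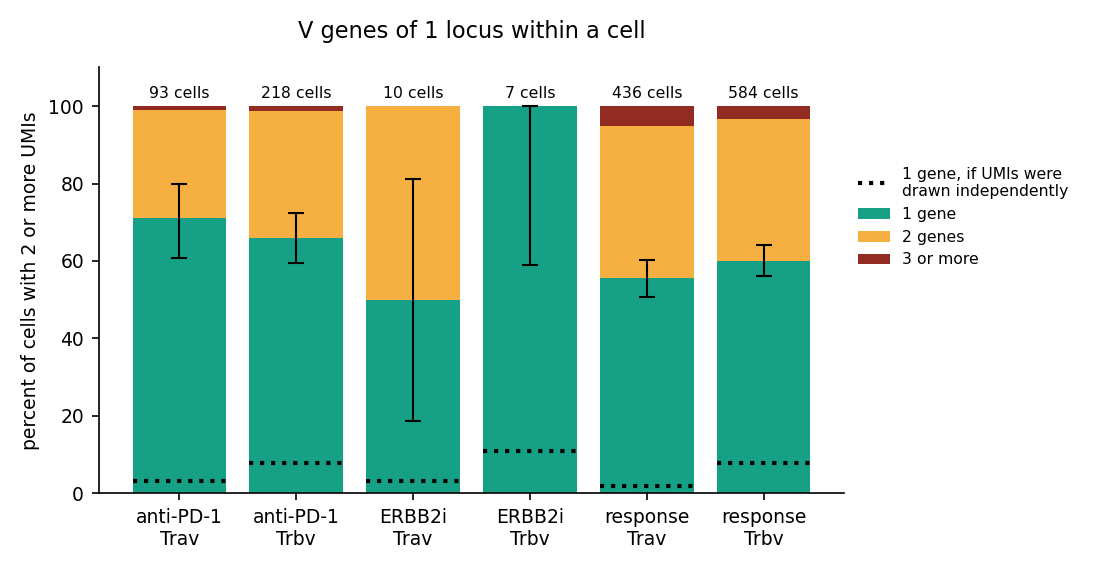
Percent of T-lineage cells with 2 or more UMIs of a locus whose UMIs named 1, 2 or 3 or more V genes, with the 95% interval of the 1-gene share. Dotted lines give the 1-gene share that independent draws from the usage of the library would give; the 1-gene shares of 66.1% and 60.1% for Trbv in anti-PD-1 and the response library stand well above it.

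A part of the cells with 2 Trbv genes held neighbouring genes. The most frequent pair was Trbv12-2 with Trbv13-2, in 13 of 71 such cells in anti-PD-1 and 29 of 214 in the response library. These genes lie 2032 bases apart. Among all cells with a Trbv13-2 UMI, Trbv12-2 was also present in 15 of 118 (12.7%, 7.29 to 20.1) in anti-PD-1 and 41 of 240 (17.1%, 12.5 to 22.5) in the response library. Among cells with Trbv2, which lies 70869 bases from Trbv12-2, it was 1 of 142 (0.704%) and 13 of 379 (3.43%). Trbv3, 399 bases from Trbv2, was present in 6 of 142 (4.23%) and 15 of 379 (3.96%) Trbv2 cells, and in 0 of 163 and 2 of 321 (0.623%) Trbv12-2 cells. Neighbouring genes made up 21 of the 71 pairs (29.6%) in anti-PD-1 and 50 of 214 (23.4%) in the response library. Trav pairs were spread over 26 different pairs in 26 cells and 148 different pairs in 172 cells, of which 3 and 15 were neighbours. Whether transcripts of 1 rearranged allele, mixed barcodes or read assignment gave these pairs was not tested.

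The calls per gene follow the loci. A gene was called where its CPM differed 2-fold or more, among genes with 20 or more UMIs over both sides. From anti-PD-1 to the response library in T-lineage cells, 44 of 46 tested Trav and 19 of 19 tested Trbv genes were higher, where 23.4% of all 14110 tested genes were, and 0 were lower, where 22.2% of all were. The median log2 ratio was 2.37 for the tested Trav and 1.35 for the tested Trbv genes against 0.12 for all tested genes. The other members had too few UMIs to be compared in that pair. Genes were tested on UMIs summed over both sides, so some passed mainly through the response library, as Trav8n-2 did with 1 and 48 UMIs. The counts called higher thus add little to the locus totals. Calls used full depth, and in thinned cells the Trbv locus differed 1.88-fold (1.62 to 2.17), below the 2-fold limit of a call. Between ERBB2i and combination the only testable member was Trbv2, which was lower in combination at −1.03 on the log2 scale (−2.44 to 0.15), while 11.1% of all tested genes were lower and 6.72% higher.

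Between classes of anti-PD-1, 10 of 16 tested Trbv genes were 2-fold higher in detected cells and 0 lower, where 5.89% of all tested genes were higher and 28.6% lower. Of 5 tested Trav genes, Trav14-2 and Trav13-5 were higher and Trav14d-3-dv8 and Trav16n lower. Between classes of the response library, 3 of 19 tested Trbv genes (Trbv1, Trbv15 and Trbv26) were higher and 1 (Trbv24) lower, where 8.67% of all tested genes were higher and 7.35% lower. Of 41 tested Trav genes, 7 were higher, among them Trav13-5, Trav21-dv12 and Trav7-6, and 9 were lower, among them Trav14d-3-dv8, Trav8d-2, Trav8n-2 and Trav4-3. For the Trbv locus as a whole, detected over not detected was 2.28-fold (1.95 to 2.67) in anti-PD-1 and 1.27-fold (1.16 to 1.40) in the response library, and for the Trav locus 0.748-fold (0.625 to 0.898) and 0.908-fold (0.823 to 1.00). In thinned cells the Trbv difference was smaller, at 158 against 113 CPM in anti-PD-1 (1.40-fold, 1.09 to 1.81) and 266 against 227 CPM in the response library (1.17-fold, 1.01 to 1.36), and the Trav values were 69.8 against 82.1 CPM (0.850-fold, 0.598 to 1.199) and 210.8 against 206 CPM (1.02-fold, 0.869 to 1.199).

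The other genes of the receptor pathway are a list of 17 constant, recombination, CD3 and coreceptor genes. From anti-PD-1 to the response library 4 of 16 tested were 2-fold higher (Rag2, Cd4, Trac and Trgc1) and 0 lower, where 23.4% and 22.2% of all tested genes were. From ERBB2i to combination 0 of 14 were higher and 3 lower (Trdc, Trgc1 and Trgc2, constant genes of the gamma delta receptor), beside 6.72% and 11.1% of all tested genes. In detected over not detected cells of anti-PD-1, 10 of 16 were higher and 1, Trac, was lower, beside 5.89% and 28.6% of all. The response library had 8 of 16 higher and 0 lower, beside 8.67% and 7.35%. Rag2 and Dntt count among the higher ones because they define the classes, and Ptcra, Cd8a, Cd8b1, Trdc, Trgc1 and Trgc2 were higher in both libraries. Ptcra was at 117 CPM in detected and 10.8 CPM in not detected cells of anti-PD-1, and at 123 and 22.8 CPM in the response library.

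Subsets of T-lineage cells were also set by other genes, chosen after the data had been seen, and did not all repeat the class results. In cells with Ptcra UMIs (738 in anti-PD-1, of which 694 were also Rag2/Dntt detected, and 696 in the response library, of which 654 were) the Trav to Trbv ratio was 0.336 (0.263 to 0.426) and 0.398 (0.332 to 0.475), and 89.2% and 73.9% of Trav UMIs came from the near part. In cells with both Cd4 and Cd8a the ratio was 0.375 (0.307 to 0.456) and 0.665 (0.612 to 0.722). In cells with Ccr7 or S1pr1, genes of T cells that circulate, it was 1.14 (0.787 to 1.65) and 0.849 (0.676 to 1.06), and 1.00 (0.653 to 1.53) in ERBB2i, and 37.9%, 45.9% and 72.3% of Trav UMIs came from the near part. The intervals of the ratio in Ptcra cells overlapped between the 2 libraries, unlike those of the Rag2/Dntt detected classes. On the log2 scale the class difference by Ptcra was −0.54 in anti-PD-1 and −1.08 in the response library. That order is the reverse of −1.61 and −0.49 by Rag2/Dntt. These subsets overlap with the Rag2/Dntt classes and are not independent of them.

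Gamma delta genes were expressed in some of the same cells. Trdc, the constant gene of delta, was seen in 1305 T-lineage cells of anti-PD-1, of which 1203 were Rag2/Dntt detected, and in 910 of the response library, of which 791 were. These cells had Trav to Trbv ratios of 0.324 (0.269 to 0.389) and 0.467 (0.401 to 0.543). The 6 Trdv genes had 152 UMIs and the 7 Trgv genes 192 in T-lineage cells of anti-PD-1, 275 and 461 in the response library, 65 and 119 in ERBB2i, and 12 and 23 in combination. In ERBB2i the 120 Trdc cells held 60 of the 65 Trdv UMIs but 3 Trav and 3 Trbv UMIs.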

How the data were processed

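SCOPE-chip scRNA-seq libraries of 5 lung tumour samples were used, 1 per group, so each replicate number only names a sample. The authors processed reads with CeleScope according to the methods, while the submitters' notes list Cell Ranger and Scanpy without versions, and build mm10. The deposited matrices hold raw UMI counts per gene and barcode, between 21624506 and 88497833 UMIs per library. Barcodes with more than 150 genes were kept unless mitochondrial counts exceeded 8% or 3 median absolute deviations, or depth, gene number or the share of the top 20 genes deviated by more than 5. Scrublet in scanpy 1.11.5 removed 2105 of 73349 barcodes; its automatic threshold was used in anti-PD-1, and a score of 0.25 elsewhere because the automatic one marked under 0.5%. The filters are those of the study's methods, except that doublets were called there with SOLO and ribosomal content was also filtered.

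T-lineage cells and classes followed CD3, Rag2 and Dntt UMIs. With 1 library per group no test between groups exists, and cells were not used as replicates. Shares carry exact Clopper-Pearson intervals, ratios exact conditional binomial intervals and CPM exact Poisson intervals (scipy 1.17.1); a count of 0 was given the limit of 3 counts. The intervals were checked on simulated counts. Named genes were the 5 Trav and 5 Trbv with most UMIs in each library, the 3 of each locus with the largest change of share in each direction per comparison, and a fixed list of other Trav and Trbv genes. Other genes named were chosen after their values were seen. Members and lists were chosen with earlier results of these data known. Coordinates come from RefSeq GRCm38.p6, matched by symbol (165 of 165), and transcripts, biotypes and sequences from GENCODE M39, matched by gene identifier (165 of 165), with no coordinates taken from it. Reads were not reassigned to V genes. Alternatives were 2 CD3 UMIs, looser cell filters, doublets kept, tumour-marked cells left out, cells in place of UMIs, 500 UMIs per cell, Rag1 in the class rule and 3 Trbv UMIs per cell; thinned locus levels were added after the data had been seen. Python 3.11.15, numpy 2.4.6, pandas 2.3.3 and matplotlib 3.10.9 were used.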

Additional observations from a re-analysis of the deposited data

Results flagged for a closer look

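V gene UMIs were also present outside the cells the comparisons used. In vehicle, where the 19 retained T-lineage cells held none, the 2458 barcodes removed by the filters held 22 Trav and 32 Trbv UMIs, 20 and 31 of them in 98 barcodes with CD3 UMIs. Without the mitochondrial and deviation filters vehicle had 108 T-lineage cells with 19 Trav and 31 Trbv UMIs after removal of doublets, a ratio of 0.613 (0.327 to 1.12).

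Retained cells without CD3 UMIs held 28 Trav and 108 Trbv UMIs in anti-PD-1, 41 and 46 in ERBB2i, 13 and 12 in combination, and 188 and 157 in combination in response, where retained vehicle cells of this kind held 0 of either. In combination in response this came to 160.9 CPM for Trav and 134 CPM for Trbv, close to the 169.8 CPM for Trav in T-lineage cells of that library and below the 220.5 CPM for Trbv. In the other 3 libraries the same cells were at 1.53 and 5.89 CPM, 0.743 and 0.834 CPM, and 0.174 and 0.161 CPM. The source of these UMIs was not tested.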

How the results depend on the processing

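Over 40 results and 163 alternative values, 130 stayed within the interval of the main value or, for effective numbers of genes, within 1.5 times of it, while 28 moved and 5 changed direction. With cells thinned to 500 UMIs, the Trav to Trbv ratio was 0.583 in anti-PD-1 and 0.843 in combination in response, the class difference on the log2 scale was −0.72 and −0.20, the share of Trav UMIs of detected cells from the near part of the locus was 75.0% and 52.2%, and combination had 7.58 effective Trav and 6.34 effective Trbv genes. Locus levels at 500 UMIs per cell were added after seeing the data. There the log2 ratio of combination to ERBB2i turned to 0.22 for Trav and 0.20 for Trbv CPM, and to 0.88 for Trav per Trac and 0.65 for Trbv per Trbc, and that of detected to not detected cells of combination in response to 0.030 for Trav CPM. Combination in response over anti-PD-1 moved to 1.44 for Trav and 0.91 for Trbv CPM and to 1.27 for Trav per Trac. Detected over not detected moved to 0.49 for Trbv CPM and −0.088 for Trbv per Trbc in anti-PD-1, and to 0.38 for Trav per Trac and −0.13 for Trbv per Trbc in combination in response. With classes set by Ptcra, an alternative chosen after seeing the data, the class difference was −0.54 and −1.08 and the near part held 89.2% and 73.9%. With cells counted in place of UMIs, the ratio in combination in response was 0.828, and Trbv2 had 15.5% in anti-PD-1 and 18.5% in combination in response. Without the mitochondrial and deviation filters, the ratio in combination in response was 0.705, its class difference −0.72, and combination had 21.4 effective Trav genes. Without cells that held 2 or more tumour UMIs, combination had 7.19 effective Trav and 4.76 effective Trbv genes. Among cells with 3 or more Trbv UMIs, 55.0% in anti-PD-1 held 1 gene. The cause of these changes was not tested. Thinned or left out cells leave fewer UMIs, and thinning also changes which cells enter a class. Rag2/Dntt detected cells of anti-PD-1 were 3156 at full depth and 1605 in thinned cells. Adding Rag1 changed nothing, since it had 0 UMIs. Combination gave no value for 3 or more Trbv UMIs, vehicle gave none at all, the 1-gene share has none for counted or thinned cells, and classes could not be compared in ERBB2i, combination and vehicle. No paired analysis was possible because each group has 1 library. ERBB2i and combination rest on 242 and 46 V gene UMIs, and vehicle on 0.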
